A study of Homo sapiens with 6 samples.

Results

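Focal adhesions are the sites at which a cell holds its matrix, and the genes described here encode the proteins that build them and tie them to actin. The list holds 54 gene symbols, chosen by name. Of these, 50 have a probe set that the array's annotation gives to 1 symbol only, among 19775 such genes on the array, and 4 (FLNA, FLNC, CRK and PAK1) were not analysed here. The 50 genes are read by 168 probe sets, up to 9 for a gene, and each gene is described by the probe set with the highest mean over all arrays unless another is named.

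The samples were MHCC97H cells, an established human hepatocellular carcinoma (HCC) line, all heated at 47 °C as residual cells of a sublethal heat treatment. They were cultured for 24 h with 100 ng/mL recombinant POSTN (POSTN, 3 samples) or with 0 ng/mL (control, 3 samples). Both groups were heated, no unheated cells are among these samples, and all are of 1 line. Each sample was read on 1 Affymetrix Human Genome U133 Plus 2.0 array, and the 3 samples of each condition carry the replicate numbers 1, 2 and 3.

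In a focal adhesion, talin and kindlin bind the tail of the integrin β chain and switch the receptor on, and vinculin, α-actinin and filamin pass the load to actin filaments. FAK and Src family kinases phosphorylate the scaffolds paxillin and p130Cas, which recruit exchange factors, and RHOA acts through ROCK on myosin II to pull on the filaments. POSTN, the protein added here, is secreted into the matrix and acts through integrins, so that these genes encode the machinery next to its receptors.

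Values are log2 signals as deposited. A background level of 5.98 was taken from 107 probe sets of olfactory receptors, genes that liver cells are not known to use, as the 95th percentile of their means. Of the 50 genes, 44 had a mean above that level, and 6 (FYN, TLN2, TNS4, LIMS1, LIMS2 and MYL9) lay at or under it, so that their values carry little measured level. The array medians lay between 5.80 and 5.95, and 47.7% to 49.7% of probe sets on an array exceeded the background level. Of the markers of epithelium, 4 of 5 had means above background, the exception being EPCAM. The keratin genes KRT8 and KRT18 read between 13.86 and 15.14 on the 6 arrays, and AFP, a fetal liver protein made by many HCC, between 8.85 and 9.16. Of the markers of endothelium and of blood cells, 2 of 5 in each list had means above background (PECAM1 and KDR, HBB and CD3E), while CDH5 and PTPRC were under it. The arrays numbered 1 of both conditions differed from the other 4 in 3069 probe sets by limma, a count that was 0 with a prior variance that did not follow the mean signal, and the POSTN comparison is also given without them. RNA came from whole cultures, in which fewer cells of a type and less RNA per cell cannot be told apart.

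The highest signals among the 44 genes came from CAV1 and CAV2, the caveolins that coat membrane pits and bind adhesion proteins, with means of 15.78 and 15.69. TES (14.82), a LIM protein of adhesions, RHOA (14.53) and RAC1 (14.33), the small GTPases of contraction and of protrusion, VCL (13.28, vinculin), ACTN1 (13.19, α-actinin), ENAH (12.80), TNS3 (12.72, a tensin) and YES1 (12.52, a Src family kinase) made up the rest of the 10 brightest. These are levels of separate probe sets, which do not rank the genes by transcript number. PTK2, which encodes FAK, read 12.39, 12.20 and 12.22 in POSTN and 12.20, 12.17 and 12.25 in control. Its signal was nearly the same on all 6 arrays.

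**Figure D1:**
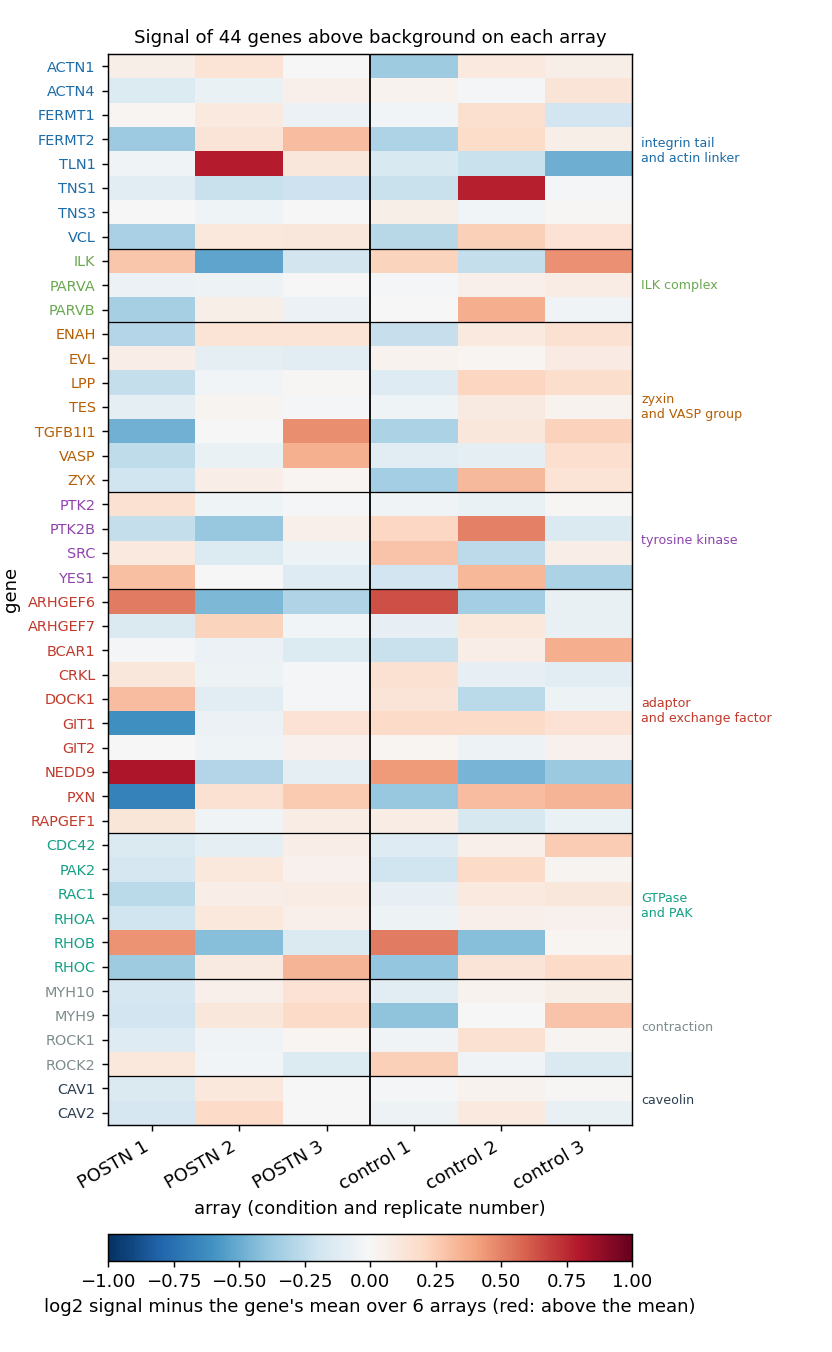
Log2 signal of the 44 genes above background on each array, minus the gene's own mean over the 6 arrays (colour, red above and blue below the mean), with POSTN arrays left of control arrays and genes grouped by role. The arrays numbered 1 share blue cells in genes such as PXN, VCL and RHOC and red cells in ARHGEF6, NEDD9 and RHOB in both conditions.

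The first question was whether exogenous POSTN changed the RNA of this machinery in heat-treated residual cells. No gene of the 50 passed: limma called 0 at an adjusted p under 0.05, and 0 reached an unadjusted p under 0.05, beside 0% of all 54613 probe sets called and 3.02% with an unadjusted p under 0.05. The methods' t-test also gave 0 of the 50 at an unadjusted p under 0.05. With the replicate number as a block, 2 genes (LPP and PXN, both with a lower mean in POSTN) had an unadjusted p under 0.05, beside 4.76% of all probe sets, and 0 passed after adjustment by limma, where the lowest adjusted p among them was 0.97. Of the 44 genes above background, 16 had a higher and 28 a lower mean in POSTN, with a median difference of -0.029 beside -0.0078 for the 11550 genes above background. The median size of the difference, without its sign, was 0.076 for these genes and 0.075 for all. Without both arrays numbered 1, an alternative chosen after seeing the data, limma called 0 of the 50 genes, 3 had an unadjusted p under 0.05, beside 4.36% of all probe sets, and the median of those above background was -0.010.

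How far a POSTN effect could reach is given by the intervals of the fit without the block. The difference was at most 0.2 in size for 37 of the 44 genes. The 95% interval lay within 0.5 of no difference for 31 genes and within 1, a change of 2-fold, for 41. For PTK2 the difference was 0.062 (95% interval -0.13 to 0.26), for VCL -0.070 (-0.41 to 0.27), for CAV1 -0.025 (-0.21 to 0.16) and for RHOA -0.029 (-0.24 to 0.18). An effect of 2-fold on these 4 genes lies outside their intervals.

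**Figure D2:**
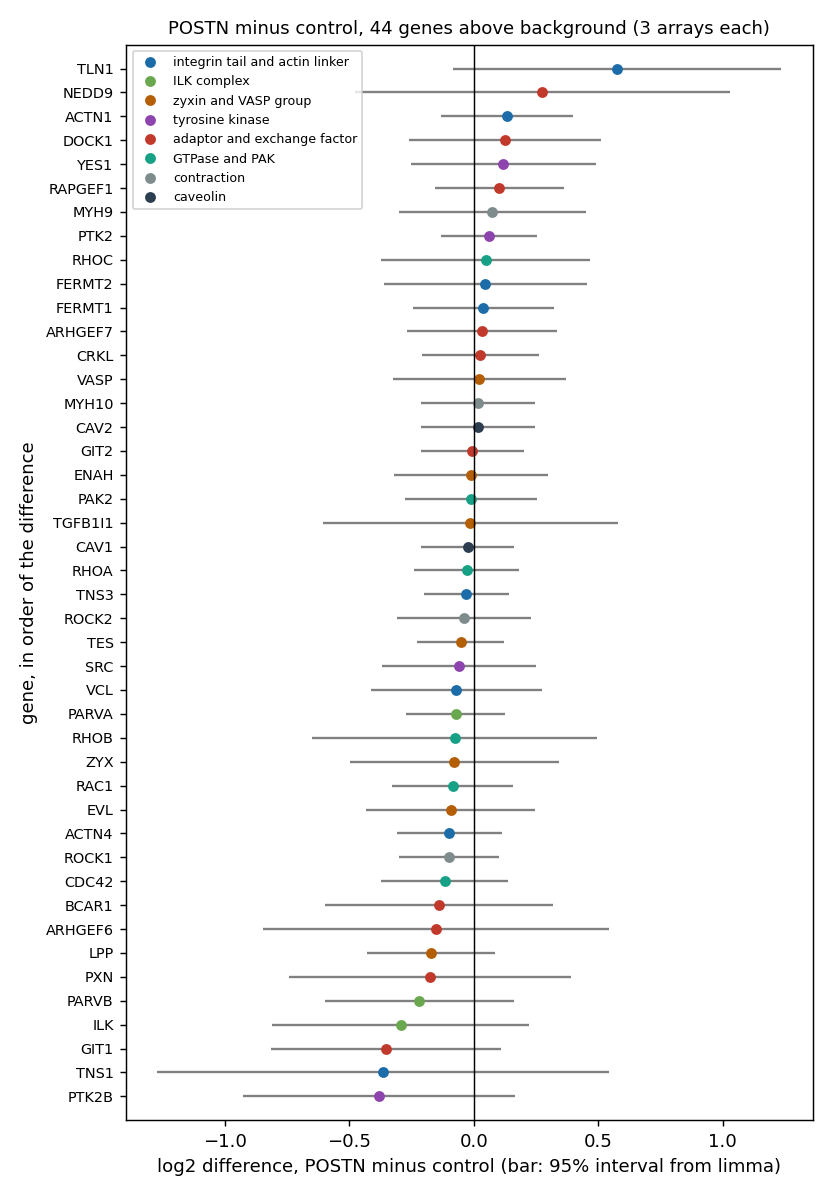
POSTN minus control log2 difference of each of the 44 genes above background (points, coloured by role) with its 95% interval from limma (bars), 3 arrays for each condition. All 44 intervals include 0, and TLN1 at 0.58 and PTK2B at -0.38 are the ends of the order.

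TLN1, which encodes talin-1, the protein that activates integrins and carries their pull, had the highest difference. It read 7.0, 7.81 and 7.14 in POSTN, against 6.87, 6.80 and 6.54 in control. All 3 POSTN values lay above all 3 control values, although the difference of 0.58 (SE 0.30, 95% interval -0.083 to 1.24) did not pass (limma adjusted p = 1.0). A second TLN1 probe set above background gave the opposite sign, with 6.99, 6.45 and 6.30 in POSTN, against 6.48, 7.61 and 7.11 in control and a difference of -0.49 (SE 0.36). The gene's direction thus depended on the probe set read.

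At the other end of the order, PTK2B, which encodes the FAK relative PYK2, read 7.26, 7.12 and 7.55 in POSTN, against 7.70, 8.0 and 7.35 in control. The groups overlapped, at a difference of -0.38 (SE 0.25). GIT1, an adaptor that brings PAK and its exchange factors to paxillin, read 7.73, 8.28 and 8.49 in POSTN, against 8.54, 8.53 and 8.49 in control. Its groups stood just apart, with the highest POSTN value next to the lowest control value, and the difference was -0.35 (SE 0.21, limma adjusted p = 1.0). TLN1 and GIT1 were the only 2 of the 44 genes whose groups did not overlap, beside 4.98% of all genes above background.

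The other genes at the ends of the order did not pass the test either. NEDD9 differed by 0.28 (SE 0.34), ACTN1 by 0.13 (SE 0.12), DOCK1 by 0.12 (SE 0.17), YES1 by 0.12 (SE 0.17) and RAPGEF1 by 0.10 (SE 0.12) in POSTN. On the lower side, TNS1 differed by -0.36 (SE 0.41), ILK by -0.29 (SE 0.23), PARVB by -0.22 (SE 0.17) and PXN by -0.17 (SE 0.25). The 3 measured members of the ILK complex above background, ILK itself and the parvins PARVA and PARVB, which join ILK to actin, were all lower in mean, with a median of -0.22. PARVA, which has the same role as PARVB, differed by -0.073 (SE 0.089).

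When roles were taken 1 by 1, the medians of the POSTN difference above background were 0.0048 for the 8 integrin tail and actin linkers, -0.052 for the 7 genes of the zyxin and VASP group, 0.0015 for the 4 tyrosine kinases, 0.0098 for the 10 adaptors and exchange factors, -0.053 for the 6 GTPases and PAK, -0.011 for the 4 contraction genes and -0.0038 for the 2 caveolins. In the zyxin and VASP group 6 of 7 genes were lower and 1 higher, and among the GTPases and PAK 5 of 6 were lower, all without passing the test.

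The genes at or under background gave the largest differences, and 3 of the 6 differed by over 1. MYL9, a myosin light chain, read 5.55, 6.01 and 5.71 in POSTN, against 5.46, 4.42 and 2.84 in control. LIMS1, which encodes the PINCH adaptor of the ILK complex, read 4.26, 5.37 and 5.16 in POSTN, against 3.99, 4.16 and 3.39 in control. The 6 LIMS1 values and all but 1 of the MYL9 values were under the background level, so that the differences of 1.09 (LIMS1) and 1.51 (MYL9) compare signals that were not above background. TLN2, which encodes talin-2, read 5.59, 3.72 and 3.13 in POSTN, against 6.35, 4.28 and 5.17 in control, a difference of -1.12 (SE 0.86), and was highest on number 1, by 1.90 (SE 0.75, limma adjusted p = 0.21). TNS4, a tensin, read 5.6, 7.15 and 5.50 in POSTN, against 3.58, 6.42 and 7.23 in control, with 0.34 (SE 0.87) for POSTN and -1.99 (SE 0.67, limma adjusted p = 0.13) for number 1. Both spread over 3 units or more within the 6 arrays, and neither passed in either comparison. FYN, a Src family kinase, read 5.67, 5.39 and 5.62 in POSTN, against 5.78, 6.14 and 5.82 in control (-0.35, SE 0.43). LIMS2, the second PINCH gene, read 5.02, 6.13 and 5.21 in POSTN, against 5.95, 6.03 and 5.52 in control (-0.38, SE 0.50). The FYN groups stood apart and the LIMS2 groups overlapped, at signals near or under the background level. Of the 102 probe sets of these genes above background, the brightest and the others together, limma gave 0 an unadjusted p under 0.05. Among all 168, 1 had such a p, beside 3.02% of all probe sets. That probe set was not above background and differed by over 2-fold, as 1398 of all 54613 probe sets did at that p.

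The second comparison set the arrays by replicate number, since those numbered 1 had been seen to stand apart in earlier results of these data. The contrast was chosen with that known, so that its p-values describe the arrays and are no independent evidence that number 1 differs. What a number stands for is stated neither in the labels nor in the methods, and nothing tells whether samples of 1 condition were grown separately. Across the array, limma with condition in the fit called 2.71% of all probe sets lower and 2.91% higher in number 1 than in numbers 2 and 3. Among the brightest probe sets of genes above background these shares were 7.19% lower and 7.9% higher.

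Of the 44 genes above background, 9 were called lower in number 1 and 3 higher. They were PXN, RHOC, FERMT2, VCL, MYH9, ENAH, LPP, PAK2 and RAC1 on the lower side and NEDD9, ARHGEF6 and RHOB on the higher. The 3 of 44 called higher were not above the 7.9% called higher among all genes above background. The lower share was 20.5%, above the 7.19% of all genes above background, and 30 of the 44 genes had a lower mean in number 1, with a median difference of -0.15 beside 0.010 for all. Over the whole array the median also moved with brightness, and its part in these counts was not tested. It was 0.091 for genes with a mean log2 signal from the background level up to 8, 0.065 from 8 to 10, -0.0051 from 10 to 12, -0.068 from 12 to 14 and -0.12 above 14. All 9 genes called lower had a mean above 10, where the shares of all genes called lower were 9.66% from 10 to 12, 16.1% from 12 to 14 and 12.0% above 14. In these ranges 5 of 15, 3 of 8 and 1 of 5 of the adhesion genes were called lower. Leaving out POSTN 1 left 2 of the 12 calls and leaving out control 1 left 3, and with a prior variance that did not follow the mean signal limma called 0 of all probe sets, while 6261 had an unadjusted p under 0.05.

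On both arrays numbered 1, 19 of the 44 genes lay below all 4 others and 7 above all 4 others. Over all genes above background these shares were 20.6% below and 23.2% above. Numbers 2 and 3 did not separate, with 0 of the 50 genes called and 0% of all probe sets. The 50 genes' lowest adjusted p in that contrast was 0.79.

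PXN, which encodes paxillin, the scaffold on which kinases and exchange factors assemble, had the lowest difference. Its arrays numbered 1 read 10.03 (POSTN) and 10.32 (control), against 10.85 and 10.96 (POSTN) and 11.01 and 11.04 (control) on numbers 2 and 3. Both number 1 arrays were thus at least 0.5 under every other array, and the 4 others lay close together. The difference was -0.79 (SE 0.080, limma adjusted p = 0.00019), or 1.73-fold lower in number 1. It was -0.88 within POSTN and -0.70 within control.

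VCL, which encodes vinculin, the clamp between talin and actin, read 12.96 (POSTN) and 13.01 (control) on number 1, against 13.39 and 13.40 (POSTN) and 13.52 and 13.43 (control) on the others. FERMT2, or kindlin-2, the partner of talin in integrin activation, read 10.13 and 10.19 on number 1, against 10.62 and 10.81 (POSTN) and 10.68 and 10.55 (control). In both genes the groups stood apart by more than the range of the 4 higher arrays. VCL differed by -0.45 (SE 0.055, limma adjusted p = 0.00064) and FERMT2 by -0.51 (SE 0.089, limma adjusted p = 0.0066). FERMT1, the kindlin of epithelia, differed by -0.0015 (SE 0.12), with its arrays between 9.49 and 9.85.

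The remaining linkers varied less or were less sure. ACTN1 read 13.24 (POSTN) and 12.83 (control) on number 1, against 13.33 and 13.19 (POSTN) and 13.28 and 13.24 (control), so that it was low on 1 array alone. Its difference was -0.22 (limma adjusted p = 0.19), with -0.017 within POSTN and -0.43 within control. The POSTN effect on ACTN1 differed between number 1 and the others by 0.41 (limma adjusted p = 0.99), with 1 of the 50 genes at an unadjusted p under 0.05 in that contrast, beside 4.53% of all probe sets, and 0% of all probe sets called. ACTN4, TNS3 and TLN1 differed by -0.078, 0.049 and -0.14 with SEs of 0.076, 0.056 and 0.30.

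ENAH and VASP encode proteins that sit at the growing ends of actin filaments, zyxin (ZYX) and LPP encode LIM proteins that bring them to the adhesion, and TES a LIM protein that binds ENAH. ENAH read 12.50 (POSTN) and 12.56 (control) on number 1, against 12.94 and 12.93 (POSTN) and 12.89 and 12.95 (control). The 4 higher arrays agree to within 0.1, and the difference was -0.39 (SE 0.056, limma adjusted p = 0.0020). LPP read 11.47 (POSTN) and 11.59 (control) on number 1, against 11.69 and 11.72 (POSTN) and 11.92 and 11.88 (control). Its groups were apart by about 0.1, at a difference of -0.28 (SE 0.063, limma adjusted p = 0.027).

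The zyxin and VASP genes that were not called pointed the same way, except EVL at 0.075. TGFB1I1, the paxillin relative Hic-5, read 7.44 (POSTN) and 7.60 (control) on number 1, against 7.92 and 8.39 (POSTN) and 8.03 and 8.15 (control), with number 1 lowest in both conditions. Its difference was -0.60 (SE 0.19, limma adjusted p = 0.11). ZYX differed by -0.41 (SE 0.13), VASP by -0.28 (SE 0.12) and TES by -0.10 (SE 0.049).

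RHOC, which is tied to cell motility, read 12.03 (POSTN) and 12.00 (control) on number 1, against 12.47 and 12.73 (POSTN) and 12.51 and 12.57 (control). RHOB, an endosomal and stress-induced GTPase, read 10.50 (POSTN) and 10.57 (control) on number 1, against 9.62 and 9.91 (POSTN) and 9.62 and 10.07 (control). RHOC was the lowest and RHOB the highest on number 1 in both conditions. RHOC differed by -0.56 (SE 0.074, limma adjusted p = 0.0013) and RHOB by 0.73 (SE 0.13, limma adjusted p = 0.0070), while RHOA differed by -0.19 (SE 0.057, limma adjusted p = 0.090).

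RAC1 read 14.06 (POSTN) and 14.25 (control) on number 1, against 14.40 and 14.41 (POSTN) and 14.43 and 14.45 (control). PAK2, a kinase that RAC1 and CDC42 activate, read 11.47 (POSTN) and 11.44 (control) on number 1, against 11.74 and 11.68 (POSTN) and 11.83 and 11.67 (control). Number 1 was lowest in both genes. RAC1 differed by -0.27 (SE 0.054, limma adjusted p = 0.014), PAK2 by -0.27 (SE 0.070, limma adjusted p = 0.046) and CDC42 by -0.21 (SE 0.082, limma adjusted p = 0.22). The PAK2 call was lost when any 1 array was left out, that of RAC1 when any POSTN array or control 1 was, and that of LPP when any POSTN array, control 1 or control 3 was.

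MYH9, the heavy chain of non-muscle myosin IIA that moves actin in stress fibers, read 10.89 (POSTN) and 10.68 (control) on number 1, against 11.19 and 11.27 (POSTN) and 11.09 and 11.36 (control). Its number 1 values were below all others, and the difference was -0.45 (SE 0.091, limma adjusted p = 0.016), which was no longer called without POSTN 1, POSTN 3 or control 1. MYH10, the heavy chain of myosin IIB, differed by -0.22 (SE 0.063, limma adjusted p = 0.078). The kinases ROCK1 and ROCK2 differed by -0.13 (SE 0.064) and 0.26 (SE 0.077, limma adjusted p = 0.081).

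NEDD9, or HEF1, a p130Cas relative, read 8.43 (POSTN) and 8.04 (control) on number 1, against 7.33 and 7.52 (POSTN) and 7.16 and 7.25 (control). ARHGEF6, or αPIX, an exchange factor for RAC1 and CDC42 that travels with GIT proteins, read 8.63 (POSTN) and 8.75 (control) on number 1, against 7.66 and 7.81 (POSTN) and 7.77 and 8.04 (control). Both genes were clearly highest on number 1. NEDD9 differed by 0.92 (SE 0.19, limma adjusted p = 0.018) and ARHGEF6 by 0.87 (SE 0.16, limma adjusted p = 0.0096), or 1.90-fold and 1.83-fold higher. Their close relatives did not show this, with BCAR1 (p130Cas) at -0.18 (SE 0.19) and ARHGEF7 (βPIX) at -0.17 (SE 0.11).

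**Figure D3:**
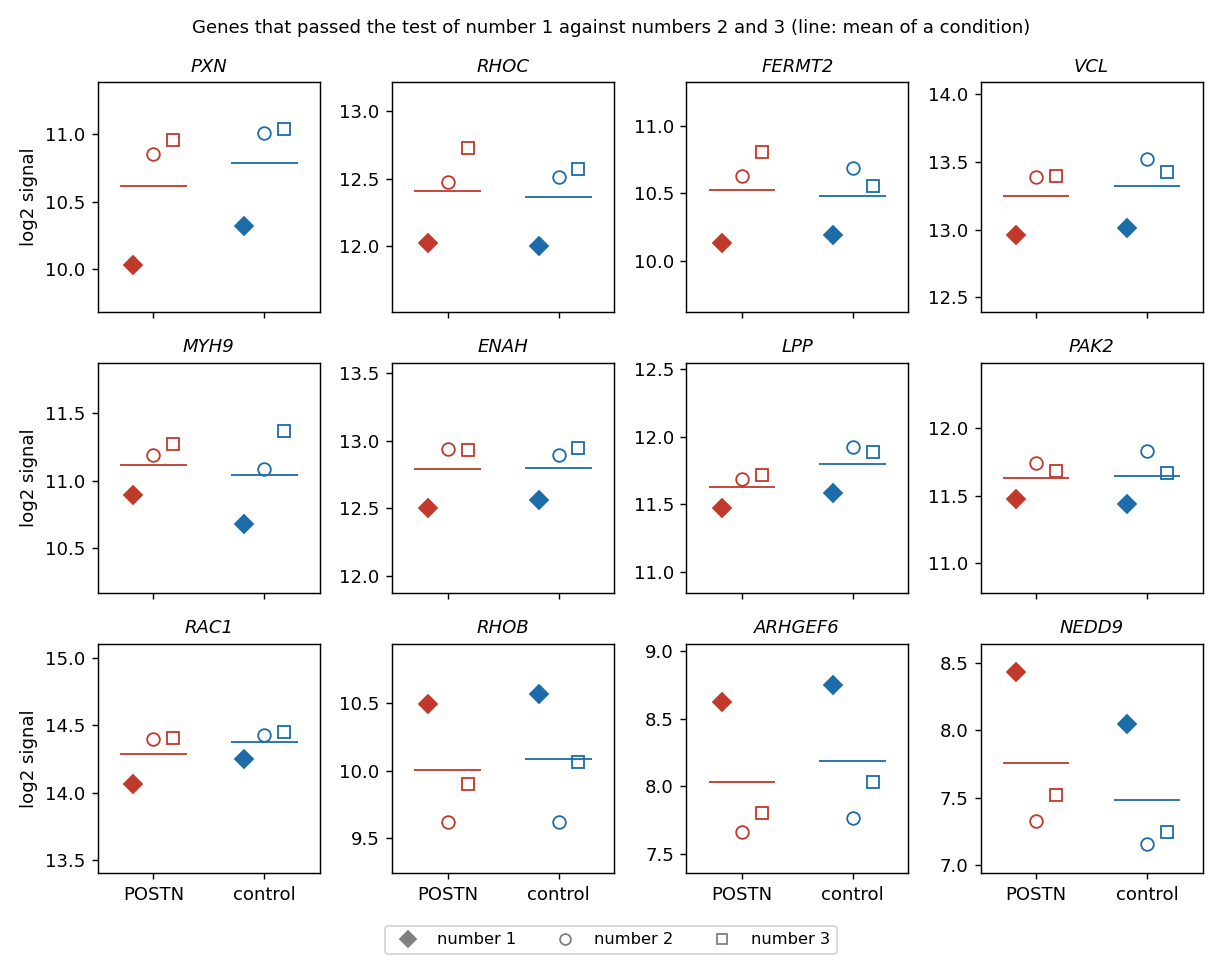
Log2 signal on each array of the 12 genes that limma called for number 1 against numbers 2 and 3, POSTN left and control right (filled diamonds number 1, open circles number 2, open squares number 3, lines the mean of a condition), in order of the difference. Filled diamonds are the lowest in the 9 genes from PXN at -0.79 to RAC1 at -0.27 and the highest in RHOB, ARHGEF6 and NEDD9.

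Other members moved by less than the test could call. DOCK1, a Rac exchange factor, differed by 0.33 (SE 0.13), CRKL, the adaptor that recruits it, by 0.20 (SE 0.070), RAPGEF1 by 0.14 (SE 0.094) and GIT2 by 0.0073 (SE 0.077). GIT1 differed by -0.31 (SE 0.18), with -0.65 within POSTN and 0.028 within control. The kinases gave 0.29 (SE 0.097) for SRC, 0.083 (SE 0.16) for YES1, 0.086 (SE 0.066) for PTK2 and -0.025 (SE 0.24) for PTK2B. ILK gave 0.37 (SE 0.20), PARVA -0.054 (SE 0.071) and PARVB -0.24 (SE 0.14), and the caveolins -0.11 (CAV1, SE 0.055) and -0.16 (CAV2, SE 0.072).

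The arrays numbered 1 of the 2 conditions deviated together over all probe sets above background (correlation 0.53). The share of all genes with the same sign in both conditions was not counted. In 34 of the 44 genes above background the number difference had the same sign within POSTN and within control. In 10 it did not, among them TLN1 at -0.48 within POSTN and 0.20 within control. A difference of POSTN effects between number 1 and the others was called in 0 of the 50 genes.

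**Figure D4:**
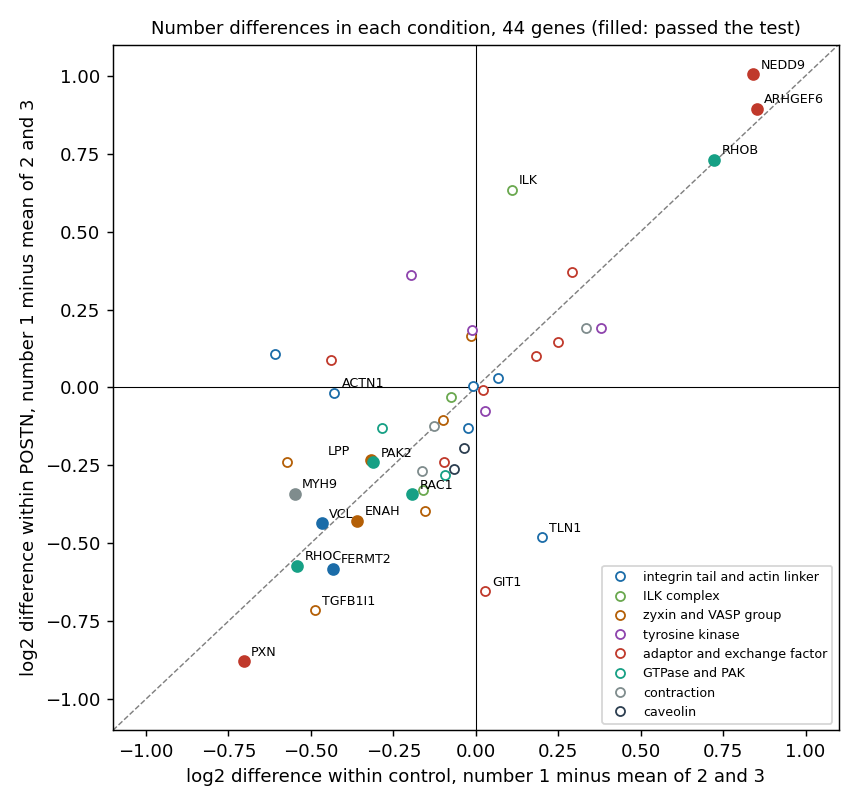
Number 1 minus the mean of numbers 2 and 3 within POSTN (vertical) and within control (horizontal), log2, for the 44 genes above background, coloured by role, with filled points for the 12 that passed and a dashed line of equal difference. The 12 called genes lie along that line, a place that the call itself favours, since unlike differences in the 2 conditions count as spread. TLN1 (-0.48 within POSTN, 0.20 within control) and GIT1 (-0.65 and 0.028) lie off it.

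Other probe sets of the same genes gave a partial second reading. The 12 called genes have 19 further probe sets above background, of which 15 had the sign of the brightest and 2 were themselves called, 1 of LPP (-0.33) and 1 of ENAH (-1.11). In PAK2 the further probe sets disagreed, with 0.17, -0.33, 0.29 and -0.26, and PAK2 was not the only called gene with a probe set of opposite sign. Of the 39 further probe sets above background of the genes that were not called, 0 were called. Of all 54613 probe sets on the array, dim ones included, 3069 were called. Over called and uncalled adhesion genes together, 37 of the 58 further probe sets above background had the sign of the brightest. The agreement in sign was thus less complete over all these genes than the 15 of 19 of the called genes. RHOC, RHOB, PXN, MYH9, VCL and ARHGEF6 have no second probe set above background, and the probe sets of VCL, FERMT2, MYH9 and RAC1 are of a type (ending in _s_at) that can match more than 1 transcript.

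Promoter sequence was read for the 9 genes called lower, which share a direction because they were picked by that call. The reason was that some cytoskeleton genes are known targets of SRF, which binds the CArG box, and of YAP with TEAD factors. Regulation by these factors was not tested. RefSeq promoters (GRCh38.p14, 250 bases before to 50 after each start) were found for 8 of the 9, with 17 starts. The TEAD core GGAATG, searched on both strands, lay in 5 of the 17, of 4 genes (LPP, MYH9, PXN and VCL), and was in 14.03% of 35116 promoters overall. It lay in 0 of the 6 promoters of the 3 genes called higher and in 9 of the 57 of the 27 other genes above background that have one. The AP-1 motif TGANTCA lay in promoters of LPP only among the called genes, beside 7.709% of all promoters, and the CArG box also only in LPP, beside 1.293%. In the 57 promoters of the 27 other genes, AP-1 lay in 3 (ACTN4, BCAR1 and GIT1) and the CArG box in 4 (ACTN1, ROCK2, TES and TGFB1I1). The CArG box was thus in 5.882% of promoters of the genes called lower and in 7.018% of those of the other genes. These are matches of letters, not sites of binding, and the 2 LPP starts with the TEAD core share 1 match. The 5 stretches are shown 5′ to 3′ on the strand of the gene, with the match in capitals. They are LPP with the CArG box (chr3:188212504-188212563, plus strand), LPP with the TEAD core read on the opposite strand (chr3:188212641-188212700, plus strand), MYH9 (chr22:36388005-36388064, minus strand), PXN with the TEAD core on the opposite strand (chr12:120250198-120250257, minus strand) and VCL (chr10:73997918-73997977, plus strand).
LPP CArG box: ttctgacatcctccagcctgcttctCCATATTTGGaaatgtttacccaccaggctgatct
LPP TEAD core: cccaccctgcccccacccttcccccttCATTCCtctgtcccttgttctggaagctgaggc
MYH9 TEAD core: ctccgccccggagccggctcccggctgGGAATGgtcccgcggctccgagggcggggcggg
PXN TEAD core: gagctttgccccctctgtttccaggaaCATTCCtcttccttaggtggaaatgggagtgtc
VCL TEAD core: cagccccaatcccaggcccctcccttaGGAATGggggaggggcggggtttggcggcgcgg

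The genes around this machinery were read in the same fits. Of 17 measured integrin chains, 12 lay above background, and of these 3 were called lower and 0 higher in number 1, with a median of -0.18. Over all genes above background, 7.19% were called lower and 7.9% higher. ITGA2, the α2 chain of a collagen receptor, read 10.78 (POSTN) and 10.60 (control) on number 1, against 11.59 and 11.72 (POSTN) and 11.59 and 11.71 (control), lower by a wide gap in both conditions. ITGB3 differed by -1.24 (limma adjusted p = 0.037) and ITGB1, the β1 chain, by -0.32 (limma adjusted p = 0.0041).

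Of 36 other measured genes of the actin cytoskeleton, 34 lay above background, with 9 called lower, 1 higher and a median of -0.19. The shares over all genes above background were 7.19% lower and 7.9% higher. Many genes of this list are bright, and of all genes with a mean from 12 to 14, 16.1% were called lower. The part of brightness in this count was not tested. TAGLN, an actin-binding protein of smooth muscle, read 6.68 (POSTN) and 6.45 (control) on number 1, against 9.03 and 8.94 (POSTN) and 8.94 and 8.81 (control). This was the widest gap of the list, at -2.37 (SE 0.15, limma adjusted p = 1.1e-05). NEXN (-1.21), TPM4 (-0.66), CFL2 (-0.37) and CNN3 (0.35, higher) were among the called, and ACTB, cytoplasmic β-actin, differed by -0.21 (limma adjusted p = 0.082) while ACTG1 was not analysed here.

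Of 12 measured target genes of SRF and YAP, 11 lay above background, with 6 called lower, 0 higher and a median of -0.47. Beside this, 7.19% of all genes above background were called lower and 7.9% higher. CCN2, a matricellular protein known as a YAP target, read 10.38 (POSTN) and 10.19 (control) on number 1, against 11.27 and 11.26 (POSTN) and 11.30 and 11.35 (control), with number 1 lowest in both. VGLL3 differed by -1.38, AXL by -1.20, CCN1 by -1.19 and AMOTL2 by -0.50. All 11 had a lower mean in number 1. For POSTN against control, 0 genes of any of these 3 lists were called, with medians of 0.017, -0.036 and 0.029.

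Markers of the line's own type (hepatocyte lineage and epithelial) and of other cell types were read beside these results. In the hepatocyte lineage list, 5 of 9 measured genes were called higher in number 1 (TF, FGB, APOH, ALB and SERPINA1) and 0 lower. Of the 7 with a mean above background, 4 were called higher and 0 lower. The log2 of the list's summed signal was 13.28 and 13.22 on number 1, against 11.51 to 11.74 on the others. APOH, at 12.69 and 12.64 on number 1, weighed heavily in those sums. Among the genes not called were AFP (0.12, limma adjusted p = 0.71), APOB (-0.65, limma adjusted p = 0.49) and APOA1, whose mean was under background. Of the 7 genes above background, 5 had a higher and 2 a lower mean in number 1, with APOB among the latter. Over all genes above background, 7.19% were called lower and 7.9% higher. In the fibroblast and stellate list, 1 of 9 was called lower (DCN, -1.0) and 0 higher, with summed signals of 11.78 and 11.58 on number 1, against 11.80 to 11.93, the means of LUM (11.17), DCN (9.26), COL1A1 (8.22) and RGS5 (6.64) above the background level and those of COL1A2, COL3A1, PDGFRB, ACTA2 and THY1 under it. In the endothelial list, 1 of 5 was called higher (PECAM1, 0.51) and 0 lower, with sums of 10.49 and 10.71 on number 1, against 9.99 to 10.31, with PECAM1 (10.10) and KDR (6.83) above background and CDH5, VWF and TIE1 under it. The blood cell sums were 7.85 and 8.18 on number 1, against 8.19 to 8.55, with HBB (7.16) and CD3E (6.19) above background and PTPRC, CD14 and LYZ under it, and the epithelial sums were 15.60 and 15.72, against 15.74 to 15.86, with 0 genes called in either list. What part these markers have in the number differences of the adhesion genes was not tested. For POSTN against control the summed hepatocyte signals ranged from 11.63 to 13.28 in POSTN and from 11.51 to 13.22 in control.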

How the data were processed

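The authors hybridized each RNA sample to 1 array and summarised the scans by MAS 5.0, with affy, per the labels. Their versions are not given here. The deposited values are log2 signals, and their linear mean without the highest and lowest 2% was 500 on all 6 arrays. Condition, dose, time and replicate number came from the sample labels. Whether samples of 1 condition were grown separately is not stated, so p-values reflect only how far these samples varied, which may be technical.

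Differences were fitted with limma 3.58.1 in R 4.3.3 (lmFit and eBayes, prior variance following the mean signal) on all 6 arrays and 54613 probe sets, after 62 control probe sets were left out, with Benjamini-Hochberg adjustment over all of them. A call is an adjusted p under 0.05. No filter on dim probe sets was applied. The contrast of number 1 against numbers 2 and 3 had condition in the fit. As an alternative, the methods' t-test was run on the same values, at an unadjusted p under 0.05. Probe sets with 1 symbol (41091) gave 1 value per gene, from the brightest probe set. Other alternatives were quantile normalization, log2(signal + 50), a filter at the background level, a prior variance without the trend, other probe sets, the replicate block, number as 3 levels and leaving out each array. The scripts were tested on simulated data. Precision is limited by the number of arrays.

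The members and lists were chosen with earlier results of these data known. All members are accounted for. Named with values are members called in a contrast, the 10 brightest, the 6 largest rises and falls above background in each contrast, members at or under background, close relatives, and from the other lists at most 5 called genes each with ITGB1, ACTB and ACTG1. Other members and probe sets that the text names were chosen after their values were seen. Same-numbered POSTN and control arrays deviated together, with correlations of 0.088, 0.034 and 0.025 over all probe sets and of 0.53, 0.23 and 0.24 over the 25320 above background, while differently numbered arrays 2 and 3 gave 0.15 and 0.20 there, so that number 1 alone was clearly apart. The POSTN fit has no block, and the replicate block is given beside it.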

Additional observations from a re-analysis of the deposited data

How the results depend on the processing

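In limma's POSTN comparison, 0 of the 50 genes were called under every alternative run, and 1496 to 2011 of all probe sets had an unadjusted p under 0.05 when 1 array was left out, beside 1649 with all arrays. The replicate block gave 2601, and 0 genes of the 50 were called with it. Genes of the 50 with an unadjusted p under 0.05 numbered 0 with all arrays, 0 to 2 with 1 array left out, 1 without the trend and 3 without both arrays numbered 1, an alternative chosen after seeing the data. Signs of small POSTN differences turned. TLN1 was -0.49 on the brightest probe set of the type meant to match 1 transcript. With 1 array left out, NEDD9 ranged from -0.060 to 0.56, ACTN1 from -0.0084 to 0.22, YES1 from -0.010 to 0.32 and PXN from -0.41 to 0.12, and without both arrays numbered 1, ACTN1 was -0.0028 and YES1 -0.066.

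Number 1 against numbers 2 and 3 gave 3069 calls over all probe sets, 0 with a prior variance without the trend, and 657 to 3073 with 1 array left out, the lowest being without POSTN 1 (657) and control 1 (718) and then POSTN 3 (1869). Of the 50 genes, 9 were called lower, 0 without the trend, 5 on probe sets of that type and 2 to 8 with 1 array left out. The 3 called higher were 0 without the trend and 0 to 3 with 1 array left out. In all, 12 were called, 0 without the trend and 2 to 11 with 1 array left out. VCL, FERMT2 and MYH9 have no such probe set, and RAC1 was not called on it or after quantile normalization. The 2 calls left without POSTN 1 were VCL and PXN, and without control 1 ENAH was left too. The cause was not tested. The signal over background limits the 6 genes at or under that level and genes just above it, such as TNS1. The number of arrays limits all genes.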
